A study of Mus musculus with 568 samples.

Results

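XGFP+ primordial germ cell-like cells (PGCLCs) were compared with the embryonic stem cells (ESCs) they were made from, by bulk RNA sequencing of 4 libraries each. Of 16335 genes in the bulk expression table, the 16281 with a mean above 10 normalized counts over all 16 bulk libraries were examined. Every library came from XRep, a female mouse hybrid ESC line. It has one X chromosome of 129S1/SvImJ origin (Xmus) and one of CAST/EiJ origin (Xcas). Xmus carries a GFP reporter in *Hprt* and a truncated *Tsix*, which directs inactivation to Xmus when the cells differentiate. Xcas carries tdTomato in *Hprt*, so both copies of *Hprt* are disrupted. Doxycycline switches on transgenes for *Prdm1* (also called Blimp1), *Prdm14* and *Tfap2c* in this line. ESCs and XGFP+ PGCLCs therefore shared the genotype, and differed in doxycycline, culture and, as far as the paper describes, sorting.

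ESCs were kept in medium with serum and LIF and passed through a 2i/LIF step before induction. The sources used here do not give which of these media the ESC libraries came from. The paper describes no sorting of ESCs for these libraries. PGCLCs were taken on day 5 of aggregate culture with doxycycline, after an epiblast-like (EpiLC) stage. They were sorted for the surface markers SSEA1 and CD61 and divided by GFP. XGFP+ thus means that the cells still showed the reporter on Xmus. XGFP− PGCLCs and EpiLCs, 4 libraries each, are used below for reference levels. Effects of germ cell induction, medium, doxycycline and sorting cannot be told apart in this comparison.

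Primordial germ cells are the founders of eggs and sperm. They arise from epiblast under BMP and WNT signals, which switch on a small set of transcription factors led by BLIMP1, PRDM14 and AP2γ. Germ cells then keep or regain part of the pluripotency network, lower the maintenance of DNA methylation, and later start genes for meiosis and for piRNAs, small RNAs that silence transposons. In female cells, the naive pluripotent state goes with activity of both X chromosomes. *Xist*, the noncoding RNA that coats the inactive X, is usually low there.

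Many promoters of later germline genes hold the E-box CACGTG, a palindrome that reads the same on both strands. Searched from 250 bases before to 50 bases after each annotated start (RefSeq, GRCm38.p6), it was in 17 of 44 promoters of the later germline genes listed here (38.6%) and in 10 of 26 of the piRNA pathway (38.5%). These lists share *Ddx4*, *Mael*, *Tdrkh* and *Fkbp6*. Among 14201 promoters of all tested genes found in the table the share was 9.77%, among promoters of genes higher in XGFP+ PGCLCs 10.2% and among those of genes lower 9.28%. A match of letters is a description of the window and not a bound site. Among later germline genes called higher in XGFP+ PGCLCs, 6 of 12 promoters (50%) held the E-box. The other matches among the 17 lay in genes not called higher. In the piRNA pathway the E-box was in 6 of 16 promoters of genes called higher (37.5%). The windows of *Dazl* and *Tdrd5*, both called higher, held none. The stretches below, mostly of genes called higher, are shown because these 6 germline genes, chosen after their values were seen, did not change alike. They read 5′ to 3′ in the direction of the gene, with the E-box in capitals.
*Ddx4*, chr13:112652277-112652396 (minus strand): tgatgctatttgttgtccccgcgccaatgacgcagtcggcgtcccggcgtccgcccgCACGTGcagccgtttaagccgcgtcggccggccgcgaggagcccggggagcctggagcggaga
*Mael*, chr1:166238875-166238994 (minus strand): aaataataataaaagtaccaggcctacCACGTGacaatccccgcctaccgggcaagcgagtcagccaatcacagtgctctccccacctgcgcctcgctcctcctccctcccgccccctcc
*Stk31*, chr6:49395427-49395546 (plus strand): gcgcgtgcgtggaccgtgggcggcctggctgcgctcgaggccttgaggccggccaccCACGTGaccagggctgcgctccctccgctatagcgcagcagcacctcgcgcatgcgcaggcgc
*Slc25a31*, chr3:40708721-40708840 (plus strand): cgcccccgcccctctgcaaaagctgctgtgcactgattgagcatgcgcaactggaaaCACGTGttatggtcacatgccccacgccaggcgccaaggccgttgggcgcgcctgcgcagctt
*Sycp3*, chr10:88459466-88459585 (plus strand): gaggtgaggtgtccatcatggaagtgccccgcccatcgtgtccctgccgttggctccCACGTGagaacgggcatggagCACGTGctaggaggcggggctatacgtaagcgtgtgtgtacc
*Hormad1*, chr3:95559563-95559682 (plus strand): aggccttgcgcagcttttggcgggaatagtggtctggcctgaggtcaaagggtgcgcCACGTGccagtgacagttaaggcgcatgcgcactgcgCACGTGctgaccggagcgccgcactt
*Ddx4* (log2 difference 1.38), *Mael* (1.89), *Stk31* (2.11), *Slc25a31* (2.16) and *Sycp3* (1.00) were higher in XGFP+ PGCLCs than in ESCs. *Hormad1*, with 2 E-boxes like *Sycp3*, had a difference of −0.97 that did not pass the test.

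A second string stood in the promoters of amino acid and stress genes. TGATGNAA, or TTNCATCA on the other strand, is the form recognised by ATF4 paired with a C/EBP protein. It was in 8 of 23 promoters of the ATF4 target genes listed here (34.8%), against 2.24% of all promoters searched, 2.16% for genes higher in XGFP+ PGCLCs and 2.48% for genes lower. This string was chosen after the expression values were seen. The stretches below are shown because the 5 genes were all lower in XGFP+ PGCLCs, and the match is in capitals.
*Slc7a11*, chr3:50443616-50443735 (minus strand): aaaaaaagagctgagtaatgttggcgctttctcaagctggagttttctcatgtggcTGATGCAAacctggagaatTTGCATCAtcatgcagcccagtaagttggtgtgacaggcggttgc
*Chac1*, chr2:119350993-119351112 (plus strand): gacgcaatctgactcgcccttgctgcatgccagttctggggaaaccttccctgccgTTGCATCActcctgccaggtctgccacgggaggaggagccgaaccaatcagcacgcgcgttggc
*Trib3*, chr2:152344011-152344130 (minus strand): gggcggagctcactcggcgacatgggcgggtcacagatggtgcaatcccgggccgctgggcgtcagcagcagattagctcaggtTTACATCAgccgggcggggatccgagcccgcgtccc
*Asns*, chr6:7693169-7693288 (minus strand): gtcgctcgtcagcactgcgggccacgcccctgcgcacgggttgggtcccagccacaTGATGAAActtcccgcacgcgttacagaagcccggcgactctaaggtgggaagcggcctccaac
*Nupr1*, chr7:126625517-126625636 (minus strand): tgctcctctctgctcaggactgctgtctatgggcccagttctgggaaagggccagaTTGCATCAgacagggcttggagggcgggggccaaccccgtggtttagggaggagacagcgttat
The log2 differences of these genes were −5.59 for *Slc7a11*, −3.22 for *Chac1*, −3.26 for *Trib3*, −1.80 for *Asns* and −4.88 for *Nupr1*. Values by library of all but *Asns* are given with the other ATF4 targets.

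The values are read counts per gene divided by the size factor of the library. Whole reads recovered from the steps between values ran from 34.6 to 37.8 M reads per ESC library and from 29.8 to 42.8 M per XGFP+ library. Libraries of a group resembled each other more than those of the other group, with r of log2 values from 0.985 to 0.991 among ESCs, 0.988 to 0.992 among XGFP+ PGCLCs and 0.898 to 0.914 between them. The mitochondrial genome took 10.7 to 13.3% of counts in ESCs and 15.1 to 17.4% in XGFP+ PGCLCs, and its part in the results below was not tested. In bulk RNA, fewer cells of a type and less RNA per cell cannot be told apart.

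Of the 3 marker genes, *Dazl* and *Prdm1* were higher in XGFP+ PGCLCs and *Klf9* was lower. *Dazl*, an RNA-binding protein needed for germ cell development (chromosome 17, positions 50279395 to 50293636 in GRCm38), had 491, 696, 498 and 630.1 normalized counts in the 4 ESC libraries and 2875, 4941, 3276 and 8074 in the 4 XGFP+ libraries. Every XGFP+ library was above every ESC library, and the XGFP+ libraries spread widely. The log2 difference on the log2(normalized count + 1) scale was 2.94 ± 0.42 (SE), an 8.28-fold rise of the mean, with an adjusted p of 4.84e-06 (limma, Benjamini-Hochberg). From here on, a value after ± is the SE for a log2 difference and the SD of 4 libraries for a mean. EpiLCs had 243 ± 61.3 (SD, n = 4) and XGFP− PGCLCs 348 ± 312, below the XGFP+ mean.

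*Prdm1*, a repressor of somatic genes and one of the induced transgenes (chromosome 10, 44437177 to 44528501), had 375, 606, 445 and 494 in ESCs and 3794, 4041, 4109 and 4106 in XGFP+ PGCLCs. The difference was 3.08 ± 0.18 (adjusted p = 4.17e-11), and the groups were far apart. The counts do not separate the transgene from the endogenous gene. *Klf9* (chromosome 19, 23141226 to 23168134), a zinc finger factor of the Krüppel-like family, had 7090, 6800.2, 7829 and 8049.9 in ESCs and 1347, 1237, 705 and 803 in XGFP+ PGCLCs, with no overlap and a difference of −2.91 ± 0.17 (adjusted p = 4.75e-11). Its mean was 3613 ± 284 in EpiLCs and 33.1 ± 6.71 in XGFP− PGCLCs. *Klf9* was thus highest in ESCs and lowest in XGFP− PGCLCs, with XGFP+ PGCLCs in between.

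The transcriptomes differed at many genes in both directions. At a false discovery rate below 0.001, 4072 genes (25% of 16281) were higher and 4047 (24.9%) were lower in XGFP+ PGCLCs. All 4 XGFP+ libraries lay above all 4 ESC libraries at 5013 genes (30.8%) and below them at 5145 (31.6%). These shares are the background for every gene group below. The median log2 difference of all genes was 0.00, with quartiles of −0.49 and 0.56. A difference above 1 on the log2 scale was reached by 2163 of the higher genes and 1867 of the lower ones, and one above 3 by 399 and 387.

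**Figure D1:**
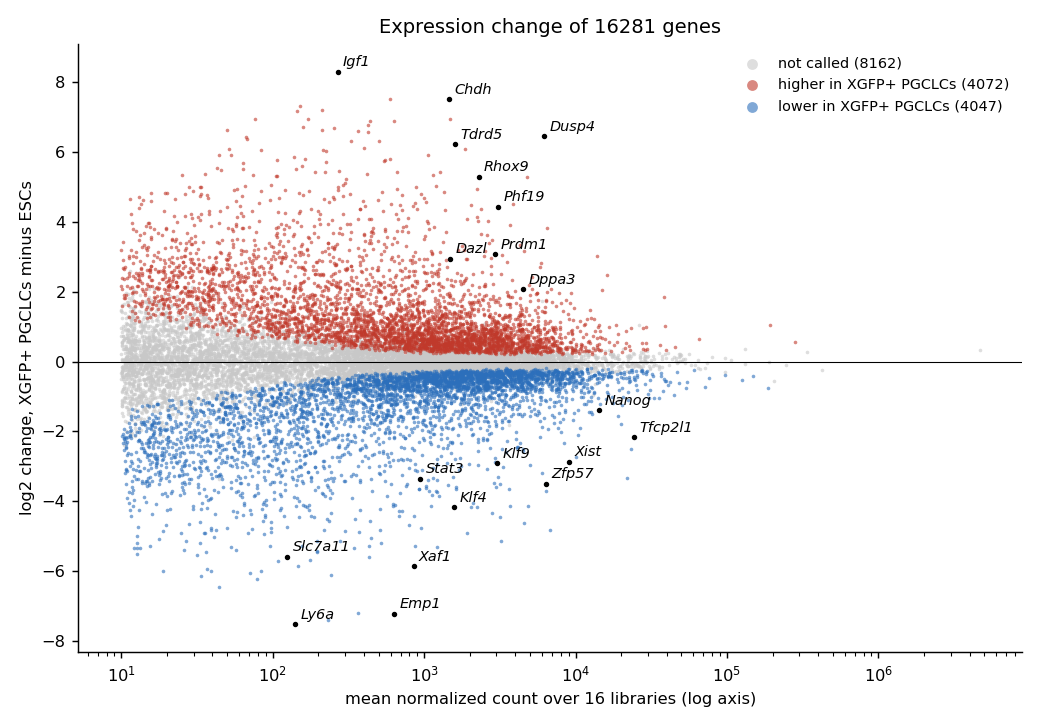
Each point is 1 of 16281 genes, with the mean normalized count over 16 libraries on the x axis (log axis) and the log2 difference (XGFP+ PGCLC minus ESC) on the y axis. The 4072 genes called higher and the 4047 called lower are coloured, the named genes are labelled, and both directions hold about equal numbers of genes.

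Among genes with a common name and a mean above 100 over all 16 libraries, those that rose most had few reads in ESCs. *Igf1*, the insulin-like growth factor, had 2 reads over the 4 ESC libraries and 1823 over the 4 XGFP+ libraries, a ratio of 848 (95% exact interval 234 to 7010, counting error only). In normalized counts the XGFP+ libraries had 405, 532, 429.8 and 449.6. *Enpp2*, which makes the lipid signal lysophosphatidic acid, had 1 read against 594 (ratio 553, 98.8 to 21872), and *Muc19*, a mucin, 3 against 1057 (ratio 328, 111.9 to 1593). *Chdh*, the enzyme that turns choline into betaine aldehyde, had 15.7, 4.94, 19.98 and 5.66 in ESCs and 1648, 1824, 2275 and 2297 in XGFP+ PGCLCs (7.52 ± 0.31, adjusted p = 3.02e-13). The remaining genes of the 10 largest increases were *BC048679* (7.53), *Ppp2r2b* (7.21), *Ptpre* (6.94), the selenium carrier *Selenop* (6.93), the immune checkpoint receptor *Vsir* (6.89) and the carbonic anhydrase *Car14* (6.78). None of the 10 had overlapping groups, which the choice of genes required.

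The 10 largest decreases, within the same limits, came from genes of varied roles. *Ly6a*, which encodes the stem cell antigen Sca-1, had 716, 300.4, 702 and 495 in ESCs and 0.907, 3.75, 0.957 and 2.69 in XGFP+ PGCLCs (−7.53 ± 0.47, adjusted p = 1.05e-10). *Emp1*, an epithelial membrane protein, had 2448, 2251, 2197 and 2259 against 19, 20.03, 9.57 and 11.6 (−7.21 ± 0.28, adjusted p = 1.76e-13). In both genes the highest XGFP+ library was far under the lowest ESC library. The others were *Tgm1*, a transglutaminase (−7.41), *Pcolce*, an enhancer of collagen processing (−7.20), *B3gnt3* (−6.11), *Emp2* (−5.86), *Xaf1*, an interferon-induced gene (−5.86), the cytokine *Il34* (−5.71), *Islr2* (−5.67) and the cystine transporter *Slc7a11* (−5.59).

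Of 14 tested germ cell specification genes, 8 rose (57.1% against a background of 25%), 2 fell and 4 did not pass the test. Their median log2 difference was 0.75. The 14 include the transgenes *Prdm1*, *Tfap2c* and *Prdm14*, which doxycycline switches on. *Prdm1* and *Tfap2c* are among the 8 that rose, so part of this count was set by the induction. *Nanos3*, an RNA-binding factor that protects germ cells from death, had 47.1, 25.7, 108.3 and 83.7 in ESCs and 662, 655, 544 and 572 in XGFP+ PGCLCs. The lowest XGFP+ library was far above the highest ESC library (3.37 ± 0.36, adjusted p = 1.33e-07). *Dppa3*, or Stella, which shields the genome from maintenance methylation, had 2595, 2548, 1997 and 2167 against 9843, 9684, 9520.2 and 9864, with little spread among XGFP+ libraries (2.07 ± 0.14, adjusted p = 3.95e-10). *Dnd1*, the RNA-binding partner of the NANOS proteins, went from 256 ± 32.2 to 2366 ± 314 (mean ± SD, n = 4 each, log2 difference 3.20 ± 0.10). *Kit*, the receptor for stem cell factor on migrating germ cells, went from 5352 ± 515 to 10539 ± 821 (0.98 ± 0.09).

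The 3 transgene factors did not move alike, and as for *Prdm1*, counts of *Tfap2c* and *Prdm14* do not separate transgene from endogenous RNA. *Tfap2c*, which encodes AP2γ, had 2353, 2008, 2800.1 and 2162 in ESCs and 5231, 5174, 4349 and 4440.5 in XGFP+ PGCLCs, without overlap (1.05 ± 0.12, adjusted p = 3.38e-07). *Prdm14*, a factor of germ cells and of naive pluripotency, had 3182, 2973, 3542 and 3775 against 3531, 3583, 3019 and 3511, and the groups overlapped. Its difference was 0.02 ± 0.45 (95% interval −0.93 to 0.97, adjusted p = 0.97), and EpiLCs had 177 ± 137.5. The spread behind this SE and interval was shared with EpiLCs, whose libraries varied widely around their mean. Over the alternative fits the difference of *Prdm14* ran from −0.04 to 0.08. The members that fell were *Klf9* and *Sall1*, a zinc finger factor of the NuRD complex (5388 ± 884 to 1977 ± 238, −1.44 ± 0.14).

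Genes of the later germline were called higher about as often as all genes. Of 37 tested genes that act in gametogenesis or meiosis, 10 rose (27%, background 25%), 3 fell (8.11%, background 24.9%) and 24 did not pass the test, with a median of 0.39. In 12 of the 37 (background 30.8%) all XGFP+ libraries lay above all ESC libraries. Beside *Dazl*, the largest increases were in *Tdrkh* (20.3 ± 8.94 to 153 ± 6.47, 2.94 ± 0.23) and in *Sycp2*, a part of the meiotic chromosome axis, which had 12.3, 31.6, 9.46 and 33.9 in ESCs and 135.1, 95.1, 135.9 and 122.7 in XGFP+ PGCLCs (2.61 ± 0.32, adjusted p = 7.81e-07). *Slc25a31*, a germline ADP/ATP carrier, followed with 2.16. *Ddx4*, the Vasa helicase of germ cells, had 143.7, 151, 206 and 216 against 429, 471, 429.8 and 513 (1.38 ± 0.15, adjusted p = 2.65e-07). *Aurkc*, the Aurora kinase of meiosis, went from 159 ± 48.1 to 544 ± 93.5 (1.80 ± 0.25). All 4 XGFP+ libraries of *Ddx4* and *Aurkc* were above the ESC libraries. The 3 members that fell were *Syce1* of the synaptonemal complex (−0.96), *Meioc*, which acts at meiotic entry (−1.31), and *Rhox13* (−1.52). The calls of *Meioc* and *Rhox13* were lost when ESCs and XGFP+ PGCLCs were fitted alone (adjusted p = 0.00129 and 0.00199), and that of *Rhox13* also without ESC replicate 2 or 4 or XGFP+ replicate 1, 3 or 4 (adjusted p of 0.00129 to 0.00181).

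Of 20 tested members of the piRNA pathway 11 rose (55%), none fell and 9 did not pass the test, with a median of 0.93, and in 14 of them (background 30.8%) all XGFP+ libraries lay above all ESC libraries. *Gtsf1* and *Piwil1*, among those that did not pass, had differences of −1.04 and −0.76. DESeq2 called 1 member lower, and 2 were lower at a false discovery rate below 0.05. *Tdrd5*, a Tudor protein of germ granules, rose most, from 20.2, 34.6, 19.98 and 20.4 in ESCs to 1725, 1575, 2109.6 and 1808 in XGFP+ PGCLCs (6.22 ± 0.19, adjusted p = 1.01e-14). Its relatives *Tdrd7* (44.9, 19.8, 50.5 and 40.7 against 404, 362, 477 and 369, 3.41 ± 0.23) and *Tdrd1* (5.61, 9.88, 7.36 and 12.4 against 88, 87.6, 121.6 and 70.8, 3.27 ± 0.22) had no overlap either. *Piwil2*, which binds piRNAs, had 499.5, 735, 445 and 564 against 1629, 1633, 1863 and 2079 (1.70 ± 0.18, adjusted p = 1.52e-07).

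**Figure D2:**
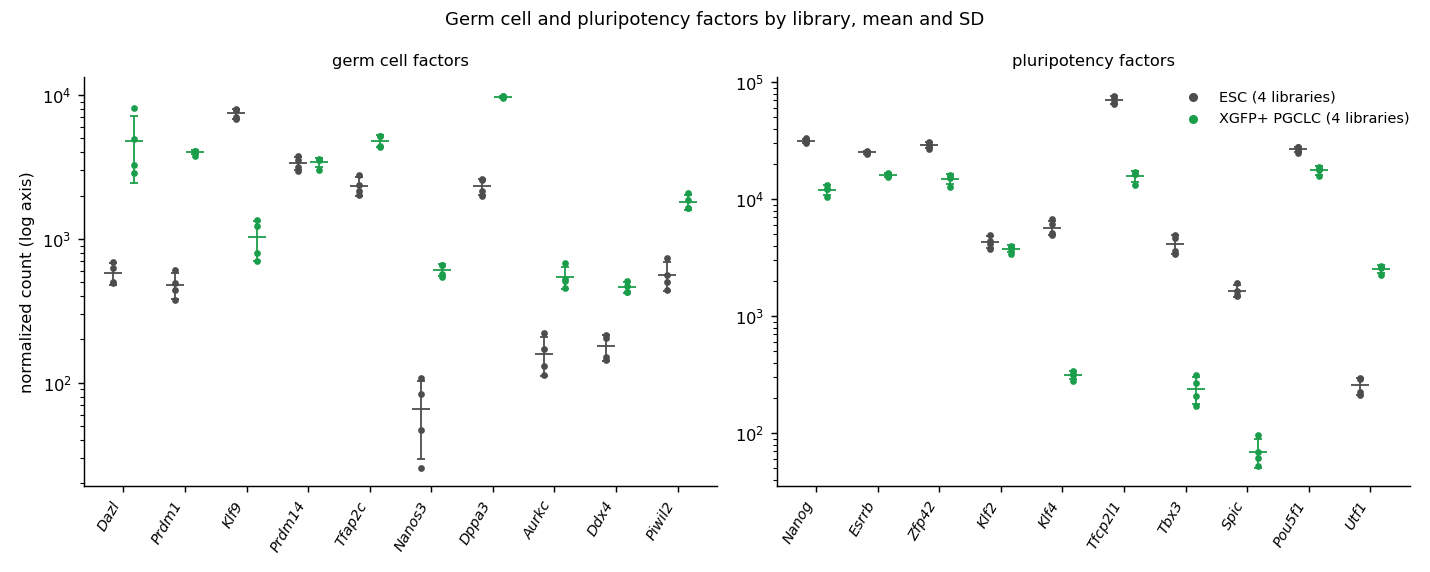
Normalized counts (log10 axis) of germ cell and pluripotency genes, with 1 point per library and a dash with error bars at the mean ± SD of the 4 libraries of each group (ESC, XGFP+ PGCLC). Germ cell genes such as *Nanos3* and *Ddx4* are higher in XGFP+ PGCLCs without overlap, *Klf4* and *Nanog* are lower, and the groups overlap for *Prdm14*.

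Of 21 naive pluripotency genes tested, 8 fell (38.1%), 1 rose and 12 did not pass the test, with a median of −0.54, and in 14 of 21 (background 31.6%) all XGFP+ libraries lay below all ESC libraries. *Klf4* had 4937, 5169.8, 6098 and 6731 in ESCs and 282, 340.4, 318 and 319.7 in XGFP+ PGCLCs (−4.17 ± 0.11, adjusted p = 1.76e-15). *Tbx3* went from 4156 ± 746 to 239 ± 62.5 (−4.13 ± 0.23), *Tfcp2l1* from 70883 ± 5098 to 15778 ± 1637 (−2.17 ± 0.15), the growth factor *Fgf4* from 11049 ± 747 to 684 ± 304 (−4.13 ± 0.25) and *Spic* from 1643 ± 191 to 69.7 ± 19 (−4.57 ± 0.29). Each of these 5 showed a wide gap between the groups.

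Other naive factors kept a high level. *Nanog* had 31578, 31306, 30164 and 33204 in ESCs and 12258, 13178, 10511 and 12239.6 in XGFP+ PGCLCs, lower in every library (−1.39 ± 0.09, adjusted p = 1.05e-10). *Esrrb* had 24493, 24828, 25214 and 26038 against 16899, 16063, 16423 and 15394, again without overlap, and its difference of −0.64 ± 0.22 had an adjusted p of 0.0143 that missed the threshold. *Zfp42*, or Rex1, went from 29122 ± 1722 to 15045 ± 1505 (−0.96 ± 0.23, adjusted p = 0.00131). The spread used for these tests was shared with EpiLCs, where *Esrrb* had 1236 ± 566 normalized counts. With ESCs and XGFP+ PGCLCs fitted alone, 13 naive genes fell instead of 8, *Esrrb* (adjusted p = 6.41e-07) and *Zfp42* (adjusted p = 5.14e-07) among them. *Klf2* (4330 ± 487 to 3775 ± 262) differed by −0.19 ± 0.16 (adjusted p = 0.296).

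Core pluripotency genes went both ways, with 7 of 16 higher (43.8%), 3 lower (18.8%) and a median of 0.24. *Utf1*, a chromatin-bound factor of the epiblast and of germ cells, had 212, 295, 227 and 289.6 in ESCs and 2603, 2687, 2613 and 2244 in XGFP+ PGCLCs (3.31 ± 0.10, adjusted p = 1.21e-14). *Dppa4* (2005 ± 225 to 6257 ± 99.8, 1.65 ± 0.11) and *Dnmt3l* (984 ± 185 to 2695 ± 707, 1.43 ± 0.19) were higher as well. *Pou5f1*, which encodes OCT4, fell from 26711 ± 1502 to 17702 ± 1427 (−0.60 ± 0.06, adjusted p = 7.15e-08), and the NODAL co-receptor *Tdgf1* from 10116 ± 2148 to 2669 ± 462 (−1.92 ± 0.13).

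Formative genes, which mark epiblast on its way to differentiation, were likewise split, with 7 of 22 higher (31.8%), 6 lower (27.3%) and a median of 0.28. *Fgf5*, the classical primed marker, had 6.74, 13.8, 11.6 and 6.79 in ESCs and 184, 136.4, 214 and 123.6 in XGFP+ PGCLCs (3.97 ± 0.20, adjusted p = 5.02e-12). *Otx2*, a factor that restrains germ cell entry, had 558, 804, 647 and 779 against 373, 262, 255 and 181 (−1.41 ± 0.17, adjusted p = 7.44e-07), and *Foxd3* had 542, 628, 824 and 1119 against 88, 83.9, 48.8 and 56.4 (−3.46 ± 0.40). *Fgf5* was thus higher in every XGFP+ library, while *Otx2* and *Foxd3* were lower in every one.

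The LIF and JAK-STAT list had 3 of 16 members higher (18.75%, background 25%) and 5 lower (31.25%, background 24.9%), with a median of −0.19. Of the 5 that fell, 4 did so by more than 3 on the log2 scale. *Stat3*, the transcription factor that LIF activates, had 2369, 2390.2, 2909 and 2967 in ESCs and 272, 277, 220.2 and 268 in XGFP+ PGCLCs (−3.35 ± 0.11, adjusted p = 1.97e-14). Its target *Socs3* went from 2772 ± 255 to 323 ± 34.7 (−3.10 ± 0.12) and *Bcl3* from 427 ± 53.7 to 19.6 ± 6.24 (−4.42 ± 0.24). The receptor genes *Lifr* (−0.12) and *Il6st* (0.20) did not pass the test. ESC medium contained LIF, and LIF is not among the listed components of the aggregate medium, so medium and cell type cannot be told apart here.

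Several FGF receptors and feedback inhibitors of MAP kinase signalling were higher, with 11 of 24 members of the ERK list up (45.8%), 5 down (20.8%) and a median of 0.46. *Dusp4*, a nuclear phosphatase that switches ERK off, had 130.2, 82, 100.9 and 81.4 in ESCs and 9192, 7178, 10459 and 7806 in XGFP+ PGCLCs (6.45 ± 0.17, adjusted p = 9.86e-16). *Dusp6*, its cytoplasmic relative, had 113.4, 105.7, 131.4 and 138.01 against 1304, 1228, 1630.1 and 1296 (3.47 ± 0.14). Receptors *Fgfr2* (309.8, 167, 673 and 506 against 5115, 5401, 5892 and 5665, 3.91 ± 0.27) and *Fgfr3* (11.2, 27.7, 28.4 and 12.4 against 194, 233, 287 and 278, 3.67 ± 0.25) moved the same way. In all 4 genes the groups were clearly apart. The immediate-early ERK targets *Egr1* (3146 ± 306 to 223 ± 61.2, −3.85 ± 0.20) and *Egr2* (571 ± 295 to 22.2 ± 6.04, −4.50 ± 0.28) and the ligand *Fgf4* fell, so the list holds large changes in both directions. EpiLCs had 5775 ± 1520.4 and XGFP− PGCLCs 10420.5 ± 219 counts of *Dusp4*, both far above ESCs. The ESC medium used just before induction contained chemical inhibitors. Whether the ESC libraries came from it is not given, and the part of medium in the ERK list was not tested.

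WNT and mesoderm genes had 5 of 21 members higher and 5 lower (23.8% each, median 0.76). *Lef1*, a nuclear effector of WNT, had 20.2, 10.9, 23.1 and 15.8 in ESCs and 899.6, 752, 758 and 705 in XGFP+ PGCLCs (5.44 ± 0.17, adjusted p = 1.38e-14). The mesoderm factor *T*, or Brachyury, had 185, 228, 75.7 and 87.1 against 5.44, 0, 4.79 and 1.79 (−5.35 ± 0.56, adjusted p = 1.08e-07), with 1 XGFP+ library at 0. *Gsc* (187 ± 47.7 to 8.60 ± 5.22) and *Cdx1* (191 ± 44.9 to 13.5 ± 3.15) fell too. The part of medium in the WNT and mesoderm list was not tested either. Of 15 BMP and Id genes 5 rose and 5 fell (33.3% each, median 0.07), with *Smad6*, an inhibitor of the pathway, up (67.6 ± 5.73 to 259.8 ± 42.1, 1.92 ± 0.15) and the ligand *Bmp4* down (658 ± 139.03 to 156 ± 21, −2.05 ± 0.16).

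**Figure D3:**
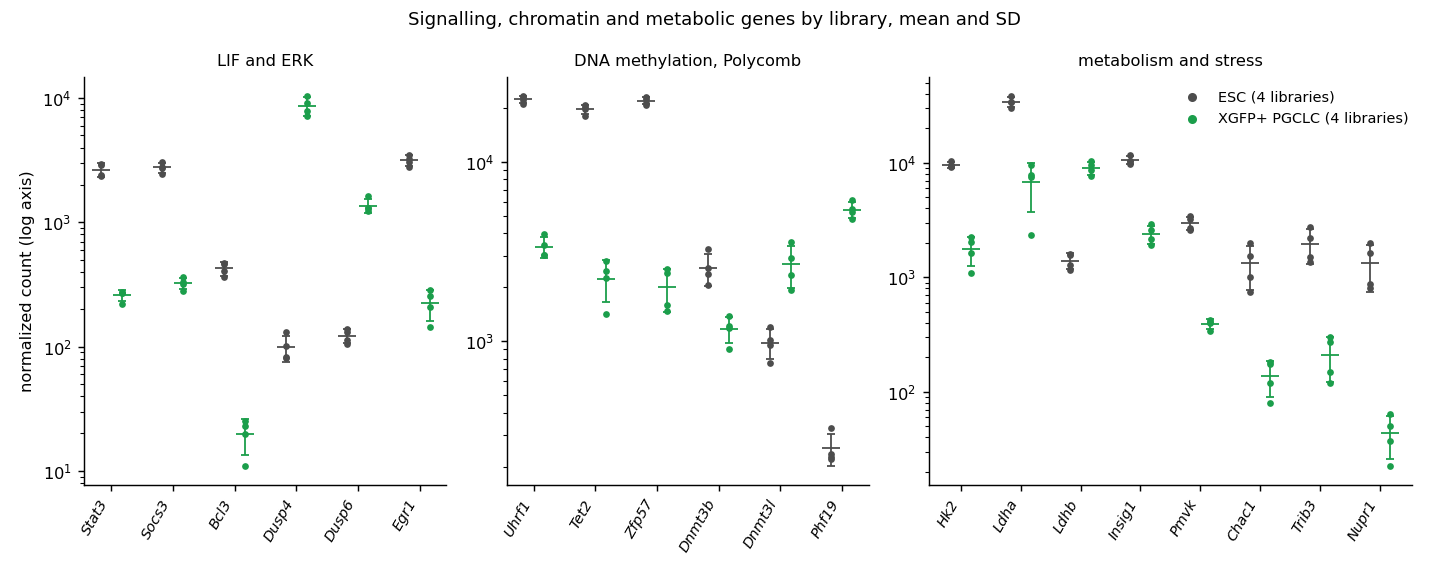
Normalized counts (log10 axis) of signalling and metabolic genes, with 1 point per library and a dash with error bars at the mean ± SD of the 4 libraries of each group (ESC, XGFP+ PGCLC). *Dusp4* is higher in every XGFP+ library than in every ESC library, while *Stat3*, *Uhrf1*, *Ldha* and *Chac1* are lower in every one.

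The DNA methylation list had 8 of 20 genes higher (40%), 6 lower (30%) and a median of 0.05. *Uhrf1*, which brings the maintenance methyltransferase to replicating DNA, had 22218, 20990.4, 23312 and 23093 in ESCs and 3966, 3432, 3042 and 3032 in XGFP+ PGCLCs (−2.74 ± 0.09, adjusted p = 1.45e-14). *Zfp57*, which protects imprinted methylation, went from 21963 ± 985 to 2003 ± 543 (−3.49 ± 0.17), and the hydroxylase *Tet2* from 19692 ± 1120.3 to 2237 ± 589 (−3.18 ± 0.22). *Tet1* had 25134, 28939, 24814 and 26648 against 24528, 29779.8, 24865 and 33107, and the groups overlapped (0.08 ± 0.10, adjusted p = 0.49). The de novo enzyme *Dnmt3b* went from 2561 ± 519 to 1173 ± 196 (−1.12 ± 0.13), against 46987 ± 2924 in EpiLCs. Methylation itself was not measured in these libraries.

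Histone methylation and Polycomb genes had 10 of 31 members higher (32.3%), 6 lower (19.4%) and a median of 0.16. *Phf19*, which guides Polycomb repressive complex 2 to chromatin, had 221, 330, 234 and 225 in ESCs and 5472, 4829, 6163 and 5253 in XGFP+ PGCLCs (4.43 ± 0.15, adjusted p = 3.37e-14). *Ring1* (160.1 ± 14.4 to 384 ± 50.03, 1.25 ± 0.10) and the H3K9 methyltransferase *Suv39h1* (1329.8 ± 43.4 to 3139.8 ± 441, 1.23 ± 0.07) rose by less.

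Imprinted genes, which are read from 1 parental copy, included 9 higher and 16 lower of 35 tested (25.7% and 45.7%, median −0.44). The count of lower genes was 12 to 15 without 1 library and 12 with the 2 groups alone. It was 13 with edgeR and 16 with DESeq2. The noncoding *H19* had 53.9, 46.4, 120.9 and 78.1 in ESCs and 1587, 1925, 1696 and 1342 in XGFP+ PGCLCs (4.52 ± 0.20, adjusted p = 6.56e-13). *Peg3* (1743 ± 287 to 9617 ± 792, 2.47 ± 0.09) and its neighbour *Usp29* (47.2 ± 9.97 to 398 ± 87.2, 3.05 ± 0.22) rose. *Plagl1*, a growth regulator, had 1685, 1922, 1661 and 2002 against 135.1, 188, 93.8 and 103.9 (−3.84 ± 0.19, adjusted p = 5.25e-12), and *Grb10* (812 ± 342 to 66.1 ± 30.8, −3.62 ± 0.44) and *Phlda2* (71.6 ± 15 to 7.97 ± 4.89, −3.21 ± 0.42) also fell. No library of either group overlapped the other for these 6 genes.

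**Figure D4:**
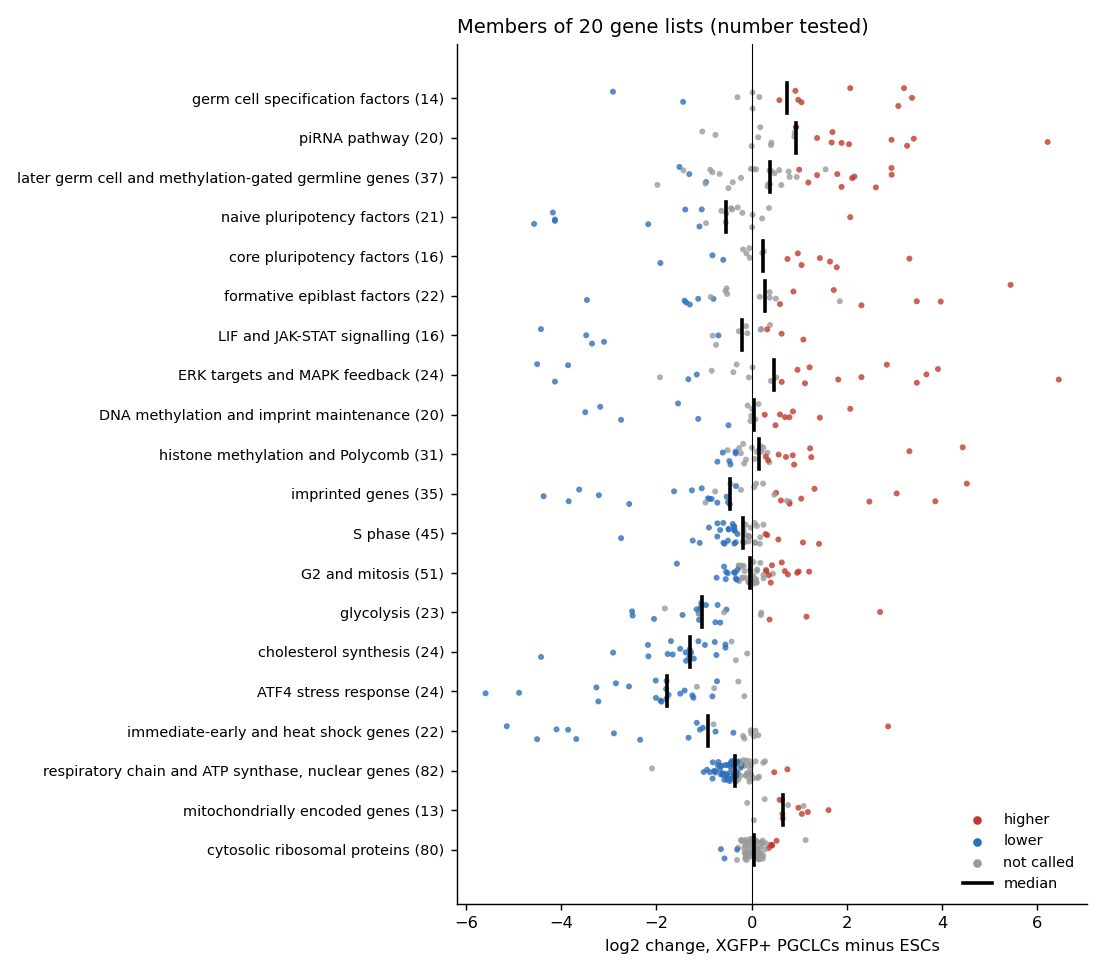
Log2 differences (XGFP+ PGCLC minus ESC, x axis) of the members of 20 gene lists, with 1 point per gene and a bar at the list median. The medians of the ATF4 (−1.79), cholesterol (−1.30) and glycolysis (−1.05) lists lie lowest, and that of the piRNA pathway (0.93) lies highest.

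Most genes of cholesterol synthesis and glycolysis were lower in XGFP+ PGCLCs. Of 24 genes of cholesterol synthesis and its control, 21 fell (87.5%) and none rose, with a median of −1.30. *Insig1*, a sterol sensor partner in the endoplasmic reticulum, had 11778, 10481, 10456 and 9827 in ESCs and 2586, 1901, 2905 and 2179 in XGFP+ PGCLCs (−2.17 ± 0.12, adjusted p = 1.53e-11). *Pmvk* had 3430.5, 2698, 3209 and 2586 against 409, 427, 403 and 340.3 (−2.91 ± 0.11), *Nsdhl* had 5168, 4137, 5172 and 4798 against 1146, 1034, 1188 and 898 (−2.18 ± 0.10), and both encode enzymes of the pathway. The ESC libraries were the higher ones for all 3 genes.

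Glycolysis had 15 of 23 genes lower (65.2%), 3 higher and a median of −1.05. *Ldha*, the lactate dehydrogenase subunit of glycolytic cells, had 38703, 34306, 33904 and 30274 in ESCs and 7545, 9526, 2353 and 7876 in XGFP+ PGCLCs (−2.50 ± 0.42, adjusted p = 3.11e-05), with replicate 3 the lowest of all libraries. *Ldhb*, the other main subunit, went the opposite way, with 1568, 1281, 1611 and 1156 against 9597, 7657, 10389 and 8739.5 (2.70 ± 0.11, adjusted p = 2.38e-13). *Hk2*, which commits glucose to the pathway, had 9301, 9513, 10464 and 9368 against 2026, 2253, 1098 and 1636 (−2.51 ± 0.16), and *Pdk1*, a brake on pyruvate oxidation, rose (3335, 4029.5, 2851 and 2972 against 7276, 7649.9, 6086 and 8236, 1.15 ± 0.15). The groups did not overlap in any of the 4.

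Respiratory chain genes of the nucleus and of the mitochondrial genome differed in direction. Of 82 nuclear genes for the respiratory chain and ATP synthase, 46 fell (56.1%) and 2 rose, with a median of −0.34, and 1 of the 46 fell by more than 1 on the log2 scale. Of 13 mitochondrially encoded genes 7 rose (53.8%) and none fell (median 0.65). Among those that rose was *mt-Nd4*, with 8502, 7009, 5738 and 5869 in ESCs and 14774, 20111, 11198 and 15979 in XGFP+ PGCLCs (1.18 ± 0.16, adjusted p = 2.97e-06). Cytosolic ribosomal protein genes stayed near the middle, with 5 of 80 higher (6.25%), 3 lower (3.75%) and a median of 0.06. With replicate number as a block, 10 were higher and 5 lower.

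Of 24 ATF4 targets, genes of amino acid supply and the integrated stress response, 20 fell (83.3%) and none rose, with a median of −1.79. *Slc7a11*, the cystine transporter, had 225, 293, 134.6 and 169 in ESCs and 1.81, 3.75, 4.79 and 2.69 in XGFP+ PGCLCs (−5.59 ± 0.25, adjusted p = 9.38e-13). *Chac1*, which breaks down glutathione, had 1552, 1988, 752 and 1012 against 175, 120.2, 181 and 79.7 (−3.22 ± 0.27, adjusted p = 6.07e-09). *Nupr1* had 1631, 1986, 814 and 877 against 64.4, 37.5, 50.7 and 22.4 (−4.88 ± 0.37), and *Trib3*, an inhibitor of AKT, 2210.3, 2783, 1376 and 1496 against 273, 150.2, 302 and 119.1 (−3.26 ± 0.26). ESC replicates 1 and 2 were the highest libraries for all 4 genes, and every XGFP+ library was below every ESC library. These 4 genes carry the ATF4 string printed above in their promoters.

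Immediate-early and heat shock genes, which respond within minutes to growth factors, stress or cell handling, had 13 of 22 members lower (59.1%), 1 higher and a median of −0.91. *Fos* had 1668, 1877, 1286 and 1109 in ESCs and 95.2, 88.9, 74.7 and 78.8 in XGFP+ PGCLCs (−4.10 ± 0.18, adjusted p = 1.1e-12), and *Atf3* had 684, 813, 222 and 333 against 16.3, 11.3, 14.4 and 7.16 (−5.14 ± 0.33, adjusted p = 1.63e-10). *Ier5* alone rose, with 92, 138.3, 89.4 and 88.2 against 784, 679.6, 814 and 681 (2.87 ± 0.17). Sorting is described only for the PGCLCs, and medium and sorting cannot be told apart from cell type for these metabolic and stress genes.

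S phase genes tended to be lower, with 21 of 45 lower (46.7%), 5 higher and a median of −0.17, and 3 of the 21 fell by more than 1 on the log2 scale. These were *Uhrf1*, *Gins2* of the replicative helicase (1630.3 ± 112.5 to 692 ± 42.6, −1.24 ± 0.06) and cyclin gene *Ccne2* (1465 ± 135.1 to 691 ± 102.96, −1.09 ± 0.13). Genes of G2 and mitosis were balanced, with 11 of 51 higher, 11 lower (21.6% each, near the background) and a median of −0.03. Among 22 cyclins and cell cycle inhibitors 9 fell (40.9%) and 3 rose (13.6%), with a median of −0.16. *Ccnd1*, which encodes cyclin D1, had 2953, 3324, 2917 and 3742 in ESCs and 230.3, 262, 84.2 and 122.7 in XGFP+ PGCLCs (−4.34 ± 0.26, adjusted p = 5.87e-11), and the kinase gene *Cdk2* had 5919, 6194, 6063 and 6339.5 against 1815, 1679.7, 1765 and 1596 (−1.84 ± 0.06). The retinoblastoma gene *Rb1* rose from 276 ± 59.8 to 1146 ± 229.8 (2.06 ± 0.15). Of 60 clustered histone genes 17 fell (28.3%, near the background of 24.9%) and 1 rose (1.67%), with a median of −0.39. Near-identical histone copies can share reads, so single members are uncertain.

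Surface and adhesion genes had 8 of 23 members higher and 9 lower (34.8% and 39.1%, median −0.34). *Cxcr4*, the receptor that steers germ cell migration, had 61.7, 37.5, 42.1 and 27.1 in ESCs and 418, 315, 487 and 298 in XGFP+ PGCLCs (3.17 ± 0.22, adjusted p = 3.9e-10). *Cldn6*, a tight junction protein, had 113.4, 201, 77.8 and 114.3 against 773, 911, 1107 and 957 (2.95 ± 0.19), and both were higher in every XGFP+ library. The adhesion molecules *Ncam1* (2467 ± 129.2 to 222 ± 65.4, −3.52 ± 0.17) and *Thy1* (202 ± 41.5 to 13.2 ± 7.63, −3.97 ± 0.38) fell. *Itgb3*, which encodes CD61, was higher (469.6 ± 54 to 1103 ± 132.2), but the XGFP+ cells were gated on CD61, so this is no finding.

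Summed levels of endoderm, neural and fibroblast markers were lower in XGFP+ PGCLCs, those of trophoblast markers overlapped, and single markers went both ways. The shares called higher and lower were 33.3% and 44.4% for endoderm and 28.6% and 57.1% for neural markers. They were 11.1% and 44.4% for fibroblast and 50% and 16.7% for trophoblast markers (background 25% and 24.9%). The 9 tested endoderm markers summed to 14642 to 17783 normalized counts per ESC library and to 2436 to 3636 per XGFP+ library, with 3 higher and 4 lower. Among the lower were *Col4a1* (−3.82) and *Gata4* (−3.04), and among the higher *Dab2* (2.47) and *Cubn* (2.06), both at low counts. Of the endoderm markers 1 was called higher with the 2 groups alone and 0 with a mean above 100 required. The 7 neural markers summed to 5809 to 8239 and 3187 to 3830, with 2 higher and 4 lower. *Pax6* was 1 of the higher ones (13.5, 6.92, 11.6 and 17 against 548, 546, 598 and 477, 5.42 ± 0.29). The 9 fibroblast markers summed to 647 to 717 and 175 to 235, with 1 higher and 4 lower. The 6 trophoblast markers summed to 1303 to 1878 and 1398 to 1584, with 3 higher and 1 lower, and *Gcm1*, a trophoblast factor, had 5.61, 1.98, 2.10 and 2.26 against 413, 349, 471 and 325 (6.68 ± 0.24). Of the markers listed, 9 of 17 for endoderm, 7 of 12 for neural cells, 9 of 14 for fibroblasts and 6 of 12 for trophoblast were among the genes tested, and the neural marker *Dcx* was at 0 in all 4 ESC libraries. The part of other cell types in the results above was not tested.

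XGFP+ cells were sorted for activity of Xmus. Of 706 X-linked genes tested 18.1% were higher and 28.8% lower, against 25.5% and 24.8% of 15316 autosomal genes, and the median log2 difference was −0.11 on the X and 0.01 on autosomes. X-linked genes took 4.71, 4.95, 4.65 and 4.70% of normalized counts in the ESC libraries and 4.31, 4.47, 4.05 and 4.20% in the XGFP+ libraries. Every XGFP+ library was below every ESC library, a difference of −0.495 percentage points (exact permutation test, two-sided, p = 0.0286, the smallest that 4 against 4 can give). Reporter sorting fixed part of this comparison, since cells without GFP from Xmus were left out.

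Allelic ratios give the share of reads from Xmus. Over 232 X-linked genes with a mean ratio between 0.3 and 0.7 in ESCs, the median over genes was 0.450, 0.466, 0.475 and 0.471 in the ESC libraries and 0.407, 0.409, 0.369 and 0.388 in the XGFP+ libraries. The means of these library medians were 0.466 ± 0.011 and 0.393 ± 0.019 (SD, n = 4), a difference of −0.0721 with all XGFP+ libraries lower (exact permutation test, two-sided, p = 0.0286). EpiLCs were at 0.215 ± 0.022 and XGFP− PGCLCs at 0.0168 ± 0.003. Over 263 genes of chromosome 13 chosen in the same way, the means were 0.500 in ESCs and 0.4995 in XGFP+ PGCLCs (p = 0.714 by the same test). All XGFP+ libraries lay below all ESC libraries at 65 X-linked genes (28%) and above them at 4 (1.72%), against 21 (7.98%) and 34 (12.9%) on chromosome 13. In XGFP+ PGCLCs 151 of the 232 genes (65.1%) had a ratio between 0.3 and 0.7, against 231 of the 263 on chromosome 13 (87.8%), and 13 X-linked genes were listed at 0, against 8 on chromosome 13, which can also mean that no allelic read was seen. Read numbers behind the ratios are unknown.

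**Figure D5:**
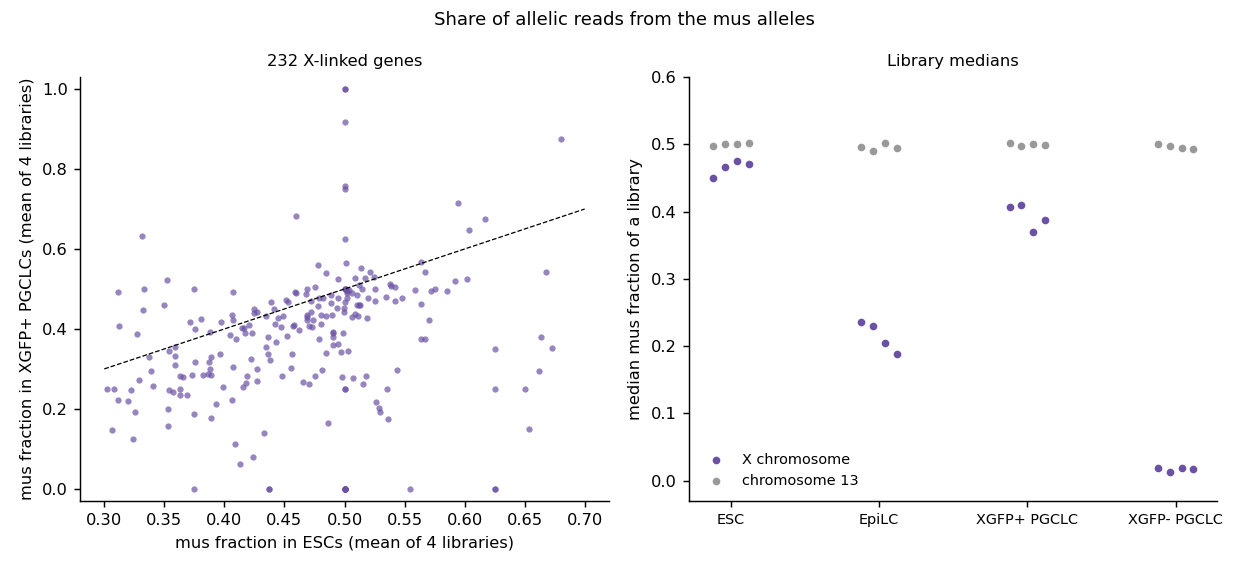
On the left, the share of reads from the mus allele of 232 X-linked genes in ESCs (x axis) and XGFP+ PGCLCs (y axis), each the mean of 4 libraries, with a dashed line where both are equal and most points below it. On the right, the median share per library over X-linked genes (purple) and 263 chromosome 13 genes (grey) in the 4 groups, with X-linked medians of 0.450 to 0.475 in ESCs and 0.369 to 0.409 in XGFP+ PGCLCs.

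*Xist* had 5274, 4986, 4565 and 3894 normalized counts in ESCs and 791, 872, 386 and 622 in XGFP+ PGCLCs, lower in every library (−2.86 ± 0.18, adjusted p = 1.26e-10). EpiLCs had 24372 ± 3021 and XGFP− PGCLCs 6678 ± 906. All ESC libraries thus lay below both of these means and above every XGFP+ library, so *Xist* was not lowest in ESCs. Of the *Xist* reads with an allele, a share of 0.998 in ESCs and 0.930 in XGFP+ PGCLCs came from Xmus. *Hprt*, which holds both reporters, had 1505, 1599.8, 1266 and 1239.8 against 909, 929, 636 and 889 (−0.75 ± 0.14, adjusted p = 1.47e-04), with replicate 3 the lowest.

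Of X-linked genes with a mean above 100, the 5 that rose most were *Rhox9*, *Hmgn5*, *Porcn*, *Rhox6* and *Nrk*. *Rhox9* had 115.6, 146, 139.8 and 149 in ESCs and 5128, 5347, 6007 and 5244 in XGFP+ PGCLCs (5.30 ± 0.29, adjusted p = 1.63e-11), and its neighbour *Rhox6* had 340.1, 282, 319.7 and 255 against 4803, 4779, 5519 and 5169.5 (4.09 ± 0.18). These homeobox genes are close copies, so reads may be shared. The mean Xmus share of *Rhox9* was 0.498 ± 0.0883 in ESCs and 0.280 ± 0.0233 in XGFP+ PGCLCs. *Hmgn5*, a nucleosome-binding protein, rose by 4.45 ± 0.16, *Porcn*, which makes WNT ligands fit for secretion, by 4.36 ± 0.22, and the kinase gene *Nrk* by 4.03 ± 0.16.

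Of X-linked genes with a mean above 100, both genes for phosphoribosyl pyrophosphate synthetase fell most. This enzyme supplies the precursor of all nucleotides. *Prps1* had 9358, 10191, 8499 and 8613 in ESCs and 609, 587, 244 and 339 in XGFP+ PGCLCs (−4.46 ± 0.21, adjusted p = 2.73e-12), and *Prps2* had 1697, 2642, 1533 and 2349.6 against 148, 161, 64.1 and 99.4 (−4.16 ± 0.25, adjusted p = 5.01e-11). The Xmus share of *Prps1* was 0.352 ± 0.0346 in ESCs and 0.522 ± 0.0404 in XGFP+ PGCLCs, higher in every XGFP+ library while the total fell. The protocadherin *Pcdh19* (−3.79), *Armcx1* (−3.73) and the peptidase gene *Xpnpep2* (−3.73) followed, and their libraries did not overlap, as the choice of genes required.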

How the data were processed

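Expression values are a normalized signal deposited by the authors for 16335 genes. Stranded total RNA reads were aligned with STAR to mm10 with strain SNPs masked, filtered with WASP, counted with HTSeq 0.6.1 and divided by DESeq2 1.16 size factors. In all 16 libraries 100.0% of values lay within 0.01 of a whole read. The edgeR and DESeq2 alternatives used the whole reads of 14 libraries. They leave out EpiLC replicates 2 and 3, which a separate check had not passed. Allelic values are a fraction deposited by the authors, mus reads over mus plus cas reads, with no read numbers. 4 columns of another study were not used.

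limma 3.58.1 (limma-trend, R 4.3.3) was fitted to log2(normalized count + 1) of all 16 libraries with group as the only term, for genes with a mean above 10, with Benjamini-Hochberg FDR below 0.001. edgeR 4.0.16 (quasi-likelihood) and DESeq2 1.42.0 were alternatives. In simulated counts for this comparison (16281 genes, of which 200 were given a change), limma found 91% of the 2-fold and 100% of the 4-fold changes and called 0 others. These shares apply only to counts with 200 changed genes, while 4072 and 4047 genes were called in the libraries. *Zfp42*, lower by 0.96 without overlap, was not called there (limma, adjusted p = 0.00131). The share of real changes that limma found was not tested. Permutation tests over libraries were exact and two-sided. Intervals of read ratios cover counting error only.

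Gene lists, 36 in all, and the genes described were chosen with earlier results of these data known. Named are *Dazl*, *Prdm1*, *Klf9*, *Prdm14*, *Tfap2c*, *Xist*, *Hprt* and genes the paper names for these libraries. With a mean above 100, a common gene name and no overlap of libraries, the 10 largest changes each way and 5 each way on the X are named as well. In each list up to 4 called genes each way and up to 2 not called genes of highest mean could be named. Some genes under this rule are not reported here. Genes outside this rule (*Mael*, *Stk31*, *Sycp3*, *Hormad1*, *Asns*, *Gtsf1*, *Piwil1*) were chosen after their values were seen. Positions are from GENCODE vM21 (GRCm38, equal to mm10) and promoters from RefSeq.

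Libraries carry only numbers 1 to 4. The paper's text gives 2 clones with 2 technical replicates each and its legends 4 biological replicates, so the p-values may be too small. Deviations of ESC and XGFP+ libraries of the same number had correlations of −0.01 to 0.06 over genes. The X-linked share of counts, however, was highest in replicate 2 (4.95% and 4.47%) and lowest in replicate 3 (4.65% and 4.05%) of both. Whether libraries of the same number belong together was not tested. Libraries of a group differed by more than sampling noise (chi-square per gene of at least 8.51).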

Additional observations from a re-analysis of the deposited data

Results flagged for a closer look

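Among 102 groups of 4 libraries of named genes, 6 held 1 library far from the other 3 by Dixon's test, and chance gives about 1 in 20 groups. *Prdm14* was at 3019 normalized counts in XGFP+ replicate 3, against 3511 to 3583 in the others. *Hprt* was at 636 in the same library, against 889 to 929. *Xaf1* was at 70.1 in XGFP+ replicate 2, against 48.4 to 50.8. In ESCs, *Ppp2r2b* was at 1.98 in replicate 2, against 1.05 to 1.13, *Selenop* at 12.8 in replicate 2, against 10.1 to 10.5, and *Enpp2* at 1.12 in replicate 1, where the other libraries were at 0. The last 3 gaps are of a few reads.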

How the results depend on the processing

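The counts of higher and lower genes, 4072 and 4047, stayed within 1.5 times of these values under other pseudocounts, filters, quantile normalization, the 2 groups alone (3534 and 3604), edgeR (3973 and 3757), DESeq2 (4270 and 4370) and without 1 library (3747 to 3906 higher, 3665 to 3846 lower). A requirement of an absolute log2 difference above 1 cut them to 2163 and 1867 by construction. With replicate number as a block they were 4232 and 4200. Of 249 named genes called, 225 were called under every alternative run on them and 24 lost the call in at least 1. Each gene had 17 alternatives, or 16 where the filter on a mean above 100 left it out. Of 72 not called, 15 were called in at least 1. No named gene reversed. Without single libraries, the X-linked allelic difference ranged from −0.0981 to −0.0639 and the difference in X-linked share from −0.566 to −0.427, each with an exact p of 0.0571, the smallest that 3 against 4 can give. With the replicate block, where 0.125 is the smallest possible p, they were −0.0721 and −0.495 (p = 0.125). Other allelic windows gave −0.104 (0.2 to 0.8) and −0.0644 (0.4 to 0.6). The count of cytosolic ribosomal genes moved from 5 to 10 higher with the block. Depth limits genes with few reads: for *Igf1*, *Enpp2* and *Muc19* the size of the change is known only within the intervals given.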

Other observations

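Several further gene groups showed values that stand in no comparison above. Of 22 contractile and keratin genes 12 were lower in XGFP+ PGCLCs than in ESCs (54.5%) and 6 were higher (27.3%), with a median log2 difference of −0.90. *Krt8*, a keratin of simple epithelia, had 2531, 1681, 2569 and 2029 normalized counts in ESCs and 42.6, 102.6, 23.9 and 77 in XGFP+ PGCLCs (−5.32 ± 0.40, adjusted p = 1.08e-09), and *Vim*, which encodes vimentin, had 5224, 3327, 6906 and 5069 against 442, 293, 256 and 175 (−4.17 ± 0.27). The myosin light chain *Myl9* went the other way, with 4.49, 0.988, 1.05 and 2.26 against 68.9, 63.8, 89 and 72.5 (4.66 ± 0.26). Only 6 Hox genes were among the genes tested, of which 5 fell (83.3%, background 24.9%) and none rose (median −3.20). A gene with counts in ESCs alone can pass the filter on the mean. The filter thus favours Hox genes that are high in ESCs, and this count is no test of direction. *Hoxb9* had 115.6, 106.7, 149 and 95 against 7.25, 15, 20.1 and 6.27 (−3.28 ± 0.49), and *Hoxc12* had 196 reads over the ESC libraries and 2 over the XGFP+ libraries, a ratio of 105 (95% exact interval 28.8 to 876, counting error only). With a mean above 100 over all libraries required, 0 of these genes were called.

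Retinoic acid genes had 3 of 15 members higher (20%) and 4 lower (26.7%), shares near the background of 25% and 24.9% (median −0.08). The receptor gene *Rarb* had 3 reads over the ESC libraries and 48 over the XGFP+ libraries (ratio 14.9, 4.80 to 74.7), and *Aldh1a3*, which makes retinoic acid, had 59.5, 86, 68.3 and 86 against 5.44, 10.01, 11.5 and 8.06 normalized counts (−2.99 ± 0.34). Sp and Klf zinc finger factors had 3 of 22 higher (13.6%) and 7 lower (31.8%, median −0.12), with *Sp5* (−2.71) and *Klf3* (−1.19) lower beside *Klf9* and *Klf4*. Of 6 genes of the oocyte programme 1 was higher (16.7%) and 2 were lower (33.3%, median −0.46). Of the lower ones *Zp3*, a zona pellucida gene, went from 284 ± 62.5 to 82.4 ± 25.6 (−1.79 ± 0.23). The 5 tested of 22 genes of the 2-cell-like state held 3 lower (60%) and none higher (median −2.34). Their summed counts were 29.6 to 129 per ESC library and 2.87 to 8.96 per XGFP+ library. These genes have close copies that can share reads.

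Of 24 p53 targets and BCL2 family genes 4 rose (16.7%, background 25%) and 7 fell (29.2%, background 24.9%), with a median of −0.25. *Bmf*, which promotes cell death, had 134.7, 178, 117.8 and 136.9 in ESCs and 752, 598, 866 and 627 in XGFP+ PGCLCs (2.32 ± 0.14), and the effector *Bak1* had 2282, 2325, 2077 and 2045 against 549, 466, 411 and 468 (−2.21 ± 0.09). The cell cycle inhibitor *Cdkn1a* went from 2217 ± 203 to 601 ± 74.5 (−1.89 ± 0.10).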
